A study of Mus musculus with 23 samples.

Results

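The windows described here are the stretches of the mouse genome that stayed most methylated in the extra-embryonic ectoderm (ExE), the trophoblast tissue of the early embryo, at embryonic day (E) 7.5. DNA methylation was given as the percent of methylated cytosine calls in windows that each span 100 CpG positions, counted over both strands. A window was taken when it lay on an autosome, was at least 1000 bp and under 14 kb long, had a value in all 8 E7.5 libraries and had a mean of at least 80% over the 4 ExE libraries. Of 348460 autosomal windows that met the other conditions, 28300 (8.12%) reached this mean, and together they cover 118.6 Mb. They are called members below. The ExE values chose them, so the E7.5 ExE levels and the E7.5 epiblast to ExE contrast are given as a description only, without tests. Annotation, the E6.5 libraries, the maternal knockout and the split by parental allele were not used to choose them.

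Bisulphite libraries were made from hybrid embryos of C57BL6/Babr (B6) and CAST/Ei (CAST) mice, with the maternal strain written first. At E7.5, epiblast and ExE of single wild-type B6/CAST and CAST/B6 embryos gave 2 libraries per tissue and cross, 8 in all. At E6.5, 15 libraries came from part of the MNase-digested chromatin of pooled embryos. These comprised 3 epiblast and 2 ExE libraries of B6/CAST, 3 epiblast and 2 ExE libraries of CAST/B6, and 2 epiblast and 3 ExE libraries of matDKO/CAST. The matDKO/CAST embryos had wild-type CAST fathers and B6/129 mothers in which floxed Dnmt3a and Dnmt3b were deleted in the growing oocyte by Zp3-driven Cre. Their eggs therefore lacked the DNA methylation that these enzymes place, whereas the embryos could inherit intact copies of both genes from the father. The mixed maternal background of the matDKO/CAST embryos and the deletion cannot be told apart in the comparison with B6/CAST. Nothing in the labels ties the libraries to separate litters, so the p-values measure the spread between these libraries. The tables give no read coverage, so the depth behind each percentage is unknown and no interval for a single value is given.

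DNA methylation is laid down by DNMT3A and DNMT3B and copied after replication by DNMT1. After implantation the epiblast, which forms the embryo proper, becomes highly methylated nearly everywhere except at CpG islands, whereas ExE keeps a lower and more patchy level. The bodies of transcribed genes carry the histone mark H3K36me3, which the PWWP domains of the DNMT3 enzymes can bind, and gene bodies are among the most methylated parts of many genomes. No measure of transcription or of histone marks was used here. The tissue labels were checked at the window that holds the start of Elf5, a trophoblast transcription factor gene whose promoter is methylated in the embryo proper. On chr2:103411630-103416440 it was methylated at 84.5% and 80.4% in B6/CAST and at 92.6% and 86.0% in CAST/B6 epiblast, against 69.1%, 60.8%, 62.1% and 63.5% in ExE. The groups did not overlap, and the lower value was in ExE. At the start of Pou5f1, the pluripotency factor gene OCT4, the order was the opposite, at 11.4% to 25% in epiblast and 37.2% to 42.1% in ExE. The E6.5 windows have other borders. In the one over the start of Elf5, on chr2:103407838-103413656, the tissues overlapped, at 75.2% to 95.2% in wild-type epiblast and 69.9% to 85.2% in wild-type ExE. At the start of Pou5f1 they did not overlap at E6.5, at 1.79% to 10% in wild-type epiblast and 15.9% to 77.8% in wild-type ExE. At the starts of Nanog, Dppa4 and Dazl, which were also looked at, the wild-type tissues overlapped at E6.5.

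Sequences are printed for a member and the promoter of Cit and Mdn1, which hold many members each. In each gene the member with the highest ExE mean was taken, at 89.9% in Cit and 88.1% in Mdn1, against a median of 82.6% over all members. These 2 are therefore not typical in level. Sequences are also printed for 2 of the 6 members with the highest mean in ExE, which lie in exons of the zinc finger genes Zfp146 and Zfp27. Each is read from the plus strand of GRCm38, with every CpG, the unit that is methylated, in capitals. From members, the first 300 bases that overlap no annotated untranslated region are shown, and from promoters the 250 bases before the annotated gene start. The stretches lie at chr5:115973344-115973643 and chr4:32662474-32662773 in introns of Cit and Mdn1, at chr7:30161740-30162039 in the coding sequence of Zfp146, at chr7:29894082-29894381 in the coding sequence of Zfp27, and at chr5:115845028-115845277 and chr4:32656869-32657118 before the starts of Cit and Mdn1.
Cit, member in an intron: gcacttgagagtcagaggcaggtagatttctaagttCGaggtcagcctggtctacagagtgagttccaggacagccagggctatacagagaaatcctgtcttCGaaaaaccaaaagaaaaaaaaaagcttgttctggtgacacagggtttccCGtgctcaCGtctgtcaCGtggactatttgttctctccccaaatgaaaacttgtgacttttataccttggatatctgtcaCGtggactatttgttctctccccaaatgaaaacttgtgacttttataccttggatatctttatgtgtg
Mdn1, member in an intron: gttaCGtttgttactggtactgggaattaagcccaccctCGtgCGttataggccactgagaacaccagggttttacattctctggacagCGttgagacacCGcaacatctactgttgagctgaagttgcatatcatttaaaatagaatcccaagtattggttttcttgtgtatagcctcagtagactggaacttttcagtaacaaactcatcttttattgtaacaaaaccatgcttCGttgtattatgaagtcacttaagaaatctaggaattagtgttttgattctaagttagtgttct
Zfp146, member in an exon: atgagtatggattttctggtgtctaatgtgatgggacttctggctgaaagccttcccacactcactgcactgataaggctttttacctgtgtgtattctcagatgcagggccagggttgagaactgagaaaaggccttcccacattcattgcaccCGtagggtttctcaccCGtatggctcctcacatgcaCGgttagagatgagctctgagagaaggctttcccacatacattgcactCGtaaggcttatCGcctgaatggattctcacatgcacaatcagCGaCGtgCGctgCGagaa
Zfp27, member in an exon: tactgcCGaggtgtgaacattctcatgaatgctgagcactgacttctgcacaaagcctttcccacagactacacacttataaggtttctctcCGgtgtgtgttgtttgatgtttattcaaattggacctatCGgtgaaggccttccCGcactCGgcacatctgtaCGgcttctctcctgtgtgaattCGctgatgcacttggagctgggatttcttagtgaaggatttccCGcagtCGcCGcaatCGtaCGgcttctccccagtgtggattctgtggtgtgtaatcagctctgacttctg
Cit, before the gene start: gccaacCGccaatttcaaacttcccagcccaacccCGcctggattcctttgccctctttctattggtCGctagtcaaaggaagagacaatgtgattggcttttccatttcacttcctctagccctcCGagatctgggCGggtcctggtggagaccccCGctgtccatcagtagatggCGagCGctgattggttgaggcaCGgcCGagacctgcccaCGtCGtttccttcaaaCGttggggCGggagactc
Mdn1, before the gene start: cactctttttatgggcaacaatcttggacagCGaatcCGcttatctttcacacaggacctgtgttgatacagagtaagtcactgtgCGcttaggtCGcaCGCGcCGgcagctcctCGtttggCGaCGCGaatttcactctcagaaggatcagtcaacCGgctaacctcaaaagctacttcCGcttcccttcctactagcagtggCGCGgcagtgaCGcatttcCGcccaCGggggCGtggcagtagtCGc

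The 2 intronic stretches hold 6 CpGs each in 300 bases, whereas the 250 bases before the gene start hold 14 CpGs at Cit and 20 at Mdn1. The exonic stretches hold 9 CpGs in Zfp146 and 12 in Zfp27, in 300 bases each. Part of the Cit stretch is a segment with a CpG that occurs in tandem copies. The window that holds the start of Cit, on chr5:115844428-115845545, was methylated at a mean of 2.44% in ExE and 1.5% in epiblast at E7.5. The member in the intron, on chr5:115973344-115975735, was methylated at 90.1% and 90.7% in B6/CAST ExE and at 89.0% and 89.8% in CAST/B6 ExE, and at 94.4%, 95.2%, 94.8% and 91.2% in epiblast. All 4 ExE libraries lay within 2 percentage points of each other and below every epiblast library. For Mdn1 the start window on chr4:32655689-32657212 had a mean of 15.4% in ExE and 18.3% in epiblast, and the member on chr4:32662474-32669316 had 87.0%, 85.3%, 88.9% and 91.3% in ExE and 97.9%, 91.5%, 90.8% and 89.7% in epiblast, so that here the tissues overlapped.

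Over the 28300 members the mean methylation at E7.5 was 82.2% ± 1.01 (SD, n = 2) in B6/CAST ExE, 83.8% ± 1.20 (SD, n = 2) in CAST/B6 ExE, 88.7% ± 0.934 (SD, n = 2) in B6/CAST epiblast and 90.3% ± 0.458 (SD, n = 2) in CAST/B6 epiblast. Over all 348460 windows the mean was 60.7% in ExE and 77.0% in epiblast. The median excess of the epiblast over ExE was 6.63 percentage points in the members, against 16.5 points over all windows. All 4 epiblast libraries lay above all 4 ExE libraries in 11800 members (41.7%), beside 75.9% of all windows, from which nothing is read since the ExE values chose the members. Many members lay close to the threshold, with 10951 (38.7%) at 80 to 82%, and 94 were at 90% or above. In 10679 members (37.7%) each of the 4 ExE libraries was at 80% or above. Just inside the threshold, the window on chr12:98794803-98799856 had ExE values of 77.4%, 78.9%, 83.1% and 80.6%. Just outside, the window on chr3:127594482-127604648 had 79.0%, 75.1%, 85.2% and 80.7%, so that windows on either side of the threshold were alike.

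Most members lay in genes. The midpoint was inside an annotated protein-coding or long non-coding RNA gene in 25830 members (91.3%), against 56.2% of all windows. Protein-coding genes held 25555 members (90.3%, against 50.1%), and long non-coding RNA genes alone held 275 (0.972%, against 6.03%). Over the upper levels the share was 44.5% in windows with an ExE mean under 60%, 51.9% at 60 to 70% and 74.1% at 70 to 80%. The relation was not a straight line over the full range, because windows at 0 to 10% in ExE were in genes in 67.9% of cases and the lowest share, 39.6%, was at 40 to 50%. Among the 94 windows at 90% or above the share was 86.2%. The midpoint was in an exon in 18% of members, against 6.35% of all windows, and in an intron in 73.3%, against 49.8%.

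**Figure D1:**
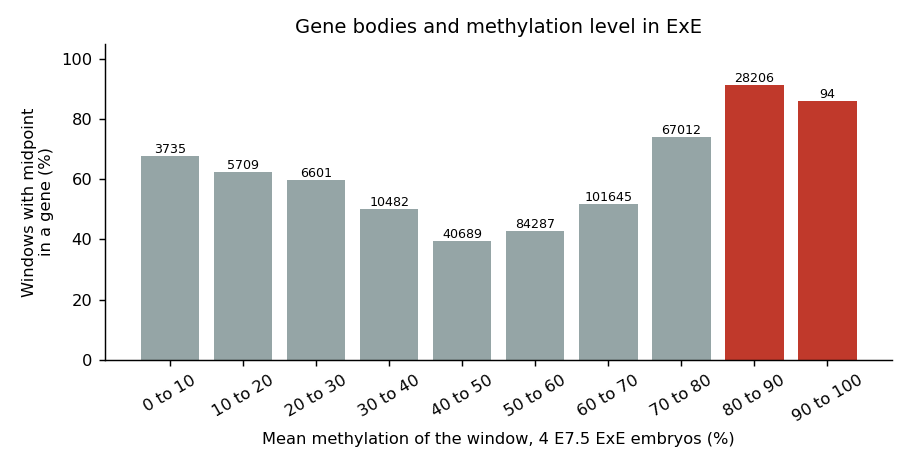
Share of windows with the midpoint in a gene (percent, vertical axis) by the mean methylation of the window over the 4 E7.5 ExE libraries (percent, horizontal axis), with the number of windows above each bar and the members in red. The share was lowest at 39.6% for windows at 40 to 50% and reached 91.3% at 80 to 90%.

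Members were shorter and held more CpGs per length than other windows. Their median length was 3827 bp, against 5197 bp over all windows, which corresponds to 13.1 CpGs per kb, against 9.88. The median GC content was 45.4%, against 43.9%. Since a window is defined by its number of CpG positions, length and CpG density are largely the same property, and their part in the share of members in genes was not tested. The share of members ranged from 6.27% of windows on chromosome 6 to 10.1% on chromosome 5.

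Few members held the outer start of a gene. Of 28300 members, 107 (0.378%) held the start of a protein-coding gene, against 3.67% of all windows and 6.85% of windows under 60% in ExE. Annotated transcript starts of any kind, which include those inside genes, were in turn more frequent, in 21.7% of members against 12.8% of all windows, and in 23.5% against 18% of those in genes. When each protein-coding gene was divided into 10 equal parts from its start, members made up 3.09% of windows in the first part, 7.52% in the following part and 21.0% in the last. Counted by distance, 63 of 9127 windows (0.690%) within 2 kb of the start were members, 7.70% at 2 to 5 kb, 18% at 5 to 10 kb and 21.7% at 10 to 20 kb. Beyond 200 kb from the start the share was 5.36%. Gene length went with it, since windows in genes of 20 to 50 kb were members in 23.0% of cases, and those in genes over 200 kb in 5.86%.

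**Figure D2:**
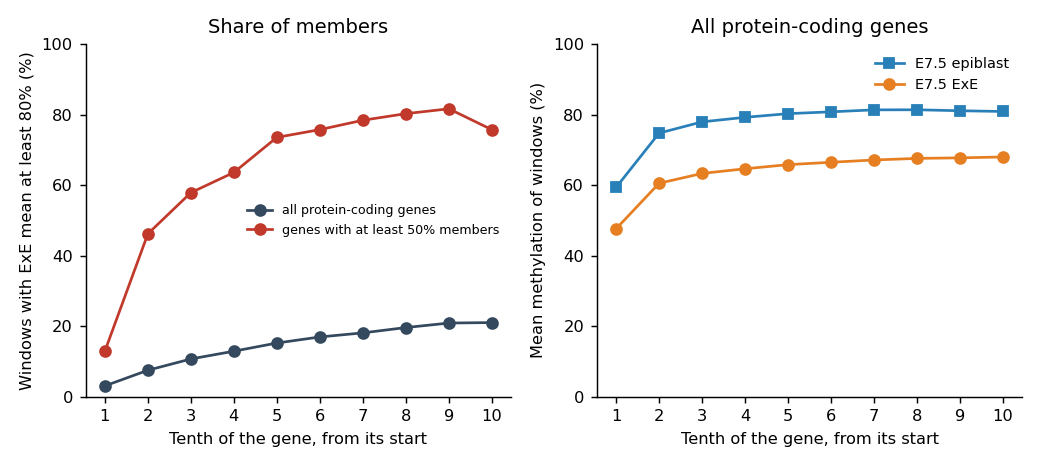
Left, share of windows that are members (percent) in each of 10 equal parts of a gene from its start, for all protein-coding genes and for genes with at least 50% members. Right, mean methylation of all windows (percent) in E7.5 epiblast and ExE by part. In all genes the share of members went from 3.09% in the first part to 21.0% in the last, and the mean in ExE from 47.6% to 68.0%.

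Of 18007 protein-coding genes with at least 1 window, 6869 (38.1%) held a member. Among the 6330 genes with at least 8 windows, 2868 (45.3%) held none, 979 (15.5%) had at least 50% of their windows among the members, 257 had at least 75%, and 4 had all. The 979 genes held 8809 members, which is 31.1% of all. Their median length was 53.2 kb, against 79.2 kb for genes with no member. The starts of these genes had low methylation. A window that holds the annotated start, of any length, was measured in all E7.5 libraries for 968 of the 979 genes and had a median of 1.58% in ExE and 2.06% in epiblast. For 2836 genes with no member these medians were 22.5% and 24.0%. In ExE, the start was methylated at under 20% in 785 of 968 genes (81.1%) with at least 50% members and in 1336 of 2836 (47.1%) with none. Start windows of any length were used, 5 of the 968 had an ExE mean of at least 80%, and this comparison was made after the values of the members had been seen.

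The genes with the most members were long. After the gene models Gm20388 (234 of 1343 windows) and Fgfr2 (54 of 592), which are annotated over several Mb and span other genes, came Tiam1 with 54 members of 122 windows, Cit with 52 of 65, Wdfy3 with 51 of 68, Dst with 48 of 111, Trio with 48 of 88, Fndc3b with 45 of 81, Eif4g3 with 44 of 56, Patj with 41 of 58, Snd1 with 41 of 80 and Zfhx3 with 39 of 249. Tiam1 and Trio encode exchange factors for small GTPases, Cit the citron kinase that acts in cytokinesis, Wdfy3 an adaptor of selective autophagy, Eif4g3 a translation initiation factor, and Patj a scaffold of cell polarity. In Cit, on chr5:115845278-116008947, the members had means of 84.8% and 83.7% in B6/CAST ExE, 85% and 86.5% in CAST/B6 ExE, 91.5% and 89.5% in B6/CAST epiblast and 92.0% and 91.4% in CAST/B6 epiblast. In Eif4g3, on chr4:137993022-138208508, they had 84.1%, 82.8%, 83.4% and 85.7% in ExE and 90.8%, 90.4%, 91.9% and 92.0% in epiblast. Both genes kept ExE within a few points over the 2 crosses, with every ExE library under every epiblast library.

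Among genes with at least 8 windows, every window was a member in Tpr (9 of 9), Gm42715, Polr2b and Secisbp2 (8 of 8 each). Tpr encodes a protein of the nuclear pore basket, Polr2b a core subunit of RNA polymerase II, and Secisbp2 a factor of selenoprotein synthesis. Next came Mdn1 (21 of 22), Hbs1l and Nomo1 (16 of 17 each), Gtf3c1 and Sfswap (15 of 16 each), Ankrd27 and Nup107 (14 of 15 each) and Cep192 (13 of 14). Mdn1 encodes midasin, a factor of ribosome assembly, Hbs1l a factor that rescues stalled ribosomes, Gtf3c1 a subunit of a transcription factor of RNA polymerase III, Sfswap a regulator of splicing, Nup107 a nuclear pore subunit, and Cep192 a centrosomal protein. In Polr2b, on chr5:77310147-77349324, the members had means of 82.6%, 83.4%, 84.3% and 86.9% in ExE and 91.0%, 88.3%, 93.2% and 93.1% in epiblast. Its start window was at 0.582% in ExE and 0.932% in epiblast. In Tpr, on chr1:150392838-150449935, the members had 83.7%, 82.5%, 84.7% and 86.8% in ExE, and the start window 11.2%.

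Gene lists were compared by the share of their windows that were members, beside 14.7% over all protein-coding genes. Lists of genes with general functions in the nucleus and in growth control were above it. Genes of splicing and RNA processing had 59 of 94 windows (62.8%), ubiquitin pathway genes 207 of 356 (58.1%), genes of DNA and histone methylation 113 of 251 (45.0%), chromatin remodelling genes 292 of 676 (43.2%) and genes of growth and mTOR signalling 162 of 383 (42.3%). Among the genes of DNA and histone methylation 16 of 20 genes held a member. Setd2, which encodes the enzyme that places H3K36me3, had 12 of 13 windows, Dnmt1 13 of 19, Ash1l 13 of 20, Ehmt1 13 of 21, Dnmt3b 5 of 10 and Dnmt3a 4 of 29. Dnmt3l, Mbd3, Trim28 and Zfp57 had none. Of 29 chromatin genes 28 held a member, with Arid2 at 19 of 24, Kmt2d at 16 of 19 and Chd4 at 9 of 10, whereas Chd9 had 0 of 42. All 16 genes of the ubiquitin pathway list held a member, among them the ligase genes Ubr4 with 35 of 41 and Nedd4 with 16 of 18. The list also holds Usp34, which encodes a deubiquitinase, with 14 of 21, and Vps13d, which encodes a lipid transfer protein, with 15 of 39. In growth signalling the kinase gene Mtor had 21 of 31 and its partner Rptor 26 of 63, while Insr had 0 of 22.

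Other lists were below the level of all protein-coding genes. In 20 long neuronal genes 8 of 2053 windows (0.390%) were members, with 0 of 226 in Lsamp and 0 of 173 in Macrod2. These genes were methylated at a mean of 49.4% and 54.9% in ExE and 77.8% and 80.1% in epiblast. Olfactory receptor genes had 2 members in 513 windows and vomeronasal receptor genes 3 in 280. The clustered protocadherins had 1 member window, counted in 7 overlapping gene models of 56. Germline genes, whose promoters are methylated after implantation, had 1 member in 70 windows, in Tdrd1. Imprinted genes had 38 in 487 windows (7.80%), with Igf2r at 6 of 22 and Gab1 at 4 of 30, and none in Pde10a (98 windows), Sfmbt2 (45) and Airn (24). Trophoblast factors had 73 of 741 (9.85%), of which 54 lay in the long Fgfr2 model, and epiblast genes 11 of 89, all in Sall4 and Dnmt3b. Zinc finger genes of the Zfp series lay between, with 422 of 1998 windows (21.1%) and a member in 151 of 343 genes. What these lists share in expression was not measured, and the lists were chosen with earlier results of these data known.

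Members followed each other along the chromosome. They formed 13741 runs of neighbouring windows, of which 7707 were single windows, and 20593 members (72.8%) had a member as a neighbour. Runs of 5 or more, 1132 in number, held 8015 members (28.3%). The longest run had 32 members over 84.4 kb on chr5:144777677-144862111, 30 of them in Trrap, an adaptor of histone acetyltransferase complexes. It was followed by 31 members over 103.4 kb on chr15:12835031-12938408, 30 of them in Drosha, the nuclease of microRNA processing, and by 28 over 69.1 kb in Cit. The means of these 3 runs were 85.5%, 85.4% and 85.2% in ExE and 91.5%, 90.9% and 91.2% in epiblast.

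The 2470 members outside genes were of another kind. Their median share of soft-masked repeat sequence was 61.7%, against 29.8% in all windows outside genes, and in 1039 (42.1%) more than 80% of the bases were repeats, against 6.37%. In members inside genes the median was 21.5%. Members outside genes also lay nearer to genes, with 1137 (46.0%) within 10 kb, against 31.9%. Their runs were short, with 5 members at most, on chr5:104914122-104926996 and chr1:171482255-171489618. Further runs of 4 were on chr7:18380155-18389148, chr3:16233525-16242016 and chr12:19710735-19718587. The mean repeat share was 85.5% in the chromosome 3 run, but 50.5%, 20.3%, 33.1% and 39.3% in the runs on chromosomes 5, 1, 7 and 12. Over the 5 runs the mean level lay between 82.7% and 84.1% in ExE and between 88.2% and 90.9% in epiblast.

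The 6 members with the highest ExE means also differed among themselves in this respect. Highest was chr6:7719496-7721072, between genes and 27030 bp from the nearest, with 90.7%, 92.0%, 97.4% and 95.8% in ExE and 86.8%, 95.4%, 86.6% and 94.5% in epiblast. It was 78.6% repeat sequence. At E6.5 the window over its midpoint ranged from 50% to 90.6% in wild-type ExE, so the E6.5 libraries were far apart. The member in Zfp146, on chr7:30161342-30162876 and 4.63% repeat, had 94.5%, 93.5%, 92.8% and 94.1% in ExE and 92.5%, 92.5%, 96.2% and 94.4% in epiblast. At E6.5 it was at 93.0% to 100.0% in the 4 wild-type ExE libraries and at 95.2% and 89.0% in the 2 matDKO/CAST ExE libraries with a value. The member in Zfp27, on chr7:29893223-29895152, had 95.3%, 92.4%, 91.6% and 92.2% in ExE, and at E6.5 its values were 87.3% and 85.9% in B6/CAST ExE and 79.8%, 75.6% and 70.6% in matDKO/CAST ExE. Introns of Cpne8 and Nipa2 held a further 2 of the 6, at 90.3% and 99.5% repeat sequence, and Dtwd2 the last.

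The E6.5 libraries, which played no part in the choice, showed the same windows to be highly methylated in the wild type a day earlier. For 28046 members an E6.5 window held the midpoint. These 25984 E6.5 windows had a median length of 4709.5 bp and were covered by members over a median of 89.8% of their length. Of these, 15351 had a value in all 15 libraries. Their means were 82.2% and 81.5% in B6/CAST ExE and 86.9% and 85.6% in CAST/B6 ExE, against 53.5% and 53.5% and against 66.2% and 63.8% over all 167307 windows. In epiblast they were 86.6%, 87.8% and 89.5% in B6/CAST and 92.6%, 92.3% and 92.4% in CAST/B6. The members lay above the windows at 70 to 80% in each of these libraries. A mean of at least 80% was reached by 68.8% of member windows in B6/CAST ExE and 84.3% in CAST/B6 ExE, against 9.75% and 22.1% of all windows. In both tissues each CAST/B6 library was higher than each B6/CAST library. Members outside genes were lower at E6.5, at 75.8% in B6/CAST ExE (n = 940 windows) against 82.3% in genes.

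**Figure D3:**
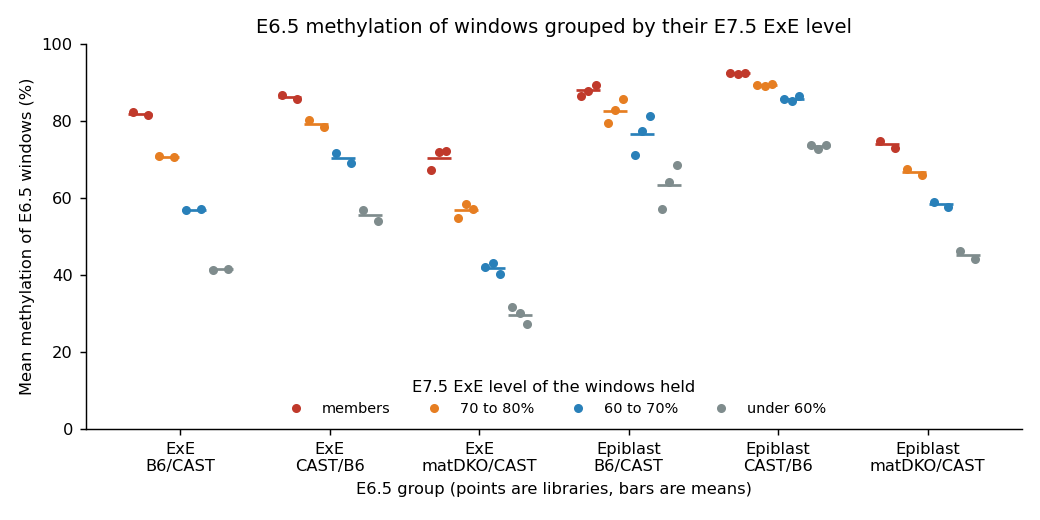
Mean methylation (percent) of E6.5 windows that hold members, or windows at lower E7.5 ExE levels, in each E6.5 library. Points are libraries and bars are group means. In every group the member windows are the highest of the 4 sets, and in matDKO/CAST they lie between 67.3% and 72.2% in ExE and at 73.1% and 74.9% in epiblast.

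The wild-type epiblast was compared with wild-type ExE at E6.5 with limma, with the cross in the model. Among 21485 member windows measured in all 10 wild-type libraries, 3364 (15.7%) had an adjusted p under 0.05 in limma after Benjamini-Hochberg adjustment over all windows, of which 3349 were higher in epiblast. Over all windows 60.3% passed, 59.6% of all being higher in epiblast. The count moved with the setting. It was 5669 (26.4%, against 64.1% of all windows) with trend and robust settings, 2140 (9.96%, against 46.96%) with no cross term and 1467 (9.56%, against 53.3%) with all 15 libraries in the fit. It was 2111 (9.82%, against 48.9%) without the first and 2003 (9.32%, against 48.7%) without the second B6/CAST ExE library. The median difference of the members was 5.90 percentage points, against 16.6. The share that passed was 42.5% for windows at 70 to 80% in E7.5 ExE and 71.5% at 60 to 70%. Members in genes passed in 14.6% of cases and members outside genes in 29.1%, with medians of 5.74 and 8.50 points. The members were chosen for a high level in ExE a day later, which by itself limits how far the epiblast can lie above ExE. After the mean of each library was subtracted, 4291 member windows (19.97%, against 14.9% of all windows) passed and nearly all of them, 4277, were on the ExE side, because the members were less different than the average window.

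Of the member windows with an adjusted p under 0.05 in limma, the largest excess of the epiblast was in the E6.5 window on chr11:18623607-18636254 in the long non-coding RNA gene Gm12023. There the epiblast had 48.7%, 75% and 80.7% in B6/CAST and 75%, 91.2% and 90.5% in CAST/B6, and ExE 17.4% and 38.0% and then 50% and 29.2%. The difference was 43.2 points (SE 7.26, adjusted p = 0.00104). The 10 libraries of the 2 tissues overlapped in this window, between 48.7% and 50%. In the other direction 15 of the 21485 member windows passed, while 60.3% of all windows passed in either direction and 59.6% as higher in epiblast. Among the 15 were chr8:95326117-95328165 in Zfp319, chr1:171418085-171421935 in Tstd1, chr7:19051988-19054199 in Sympk, a scaffold of polyadenylation, and chr17:27119195-27121300 in Itpr3, a calcium channel of the endoplasmic reticulum. At Itpr3 the epiblast had 51.4%, 45.7% and 52.6% in B6/CAST and 60%, 41.7% and 49.9% in CAST/B6. ExE had 69.9%, 68.9%, 66.7% and 62.4%. The groups did not overlap, with a difference of -16.8 points (SE 4.28, adjusted p = 0.00677).

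Embryos from mothers without Dnmt3a and Dnmt3b in the oocyte had lower methylation over the members in both tissues at E6.5. In ExE the member windows were at 67.3%, 72.0% and 72.2% in matDKO/CAST, against 82.2% and 81.5% in B6/CAST, a difference of -11.4 points. In epiblast they were at 74.9% and 73.1%, against 86.6%, 87.8% and 89.5%, a difference of -13.9 points. The mean of each matDKO/CAST library lay below that of each B6/CAST library of the same tissue. The first matDKO/CAST ExE library stood apart from the other 2 over members but not over all windows, where they were at 41.1%, 41.8% and 39.6%. By level, the difference was -13.9 for windows at 70 to 80%, -15.2 at 60 to 70% and -11.8 under 60% in ExE, and -12.7 over all windows. Relative to the B6/CAST level, members had 86.1% in ExE and 84.2% in epiblast, against 76.3% and 76.2% over all windows, and 73.4% and 76.2% of windows at 60 to 70%. The share of member windows with a mean of at least 80% was 68.8% in B6/CAST ExE and 11.7% in matDKO/CAST ExE, and 93.0% and 29.4% in epiblast.

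At the level of single windows, 0 of 15351 member windows had an adjusted p under 0.05 for matDKO/CAST against B6/CAST in ExE by limma, and none of all windows did (0%). At an unadjusted p under 0.05 there were 4168 member windows (27.2%, against 28.3% of all windows), and 94.9% of the members' estimates were below 0, against 92.6%, with a median of -11.1 points. Without the first matDKO/CAST epiblast library, 415 (2.58%, against 3.2%) passed in ExE by limma. With the wild type taken as the mean of both crosses 6233 member windows (40.6%, against 54.4% of all windows) passed, and 55 (0.358%, against 0.198%) with the trend and robust settings of limma. In 7810 member windows (50.9%) each of the 3 matDKO/CAST ExE libraries was below both B6/CAST libraries, the same share as the 51% over all windows. In epiblast 3719 member windows (24.2%) passed by limma, 3717 of them lower in matDKO/CAST, beside 29.2% of all windows, with a median of -13.4 points against -16.5. Without the B6/CAST epiblast library of unmatched number 1641 (10.7%, against 13.3%) passed, and after the mean of each library was subtracted 0 did, against 0.0126% of all windows. With the wild type as the mean of both crosses 7554 (49.2%, against 57.7%) passed in epiblast, and 2180 (13.4%, against 18.6%) with the B6/CAST and matDKO/CAST libraries alone. The order of these shares depended on the setting, since on the logit scale 10.2% of member windows passed against 8.13% of all, and with trend and robust settings 31.1% against 30.2%. All matDKO/CAST epiblast libraries were below all B6/CAST ones in 8385 member windows (54.6%), against 50.5%. The difference of the effect between ExE and epiblast was tested as an interaction, in which 0 member windows and 0% of all passed by limma, with 1078 member windows (7.02%, against 8.8% of all windows) at an unadjusted p under 0.05. None of these member windows passed under any other setting tried.

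Because single windows were noisy, gene means were also tested, which was decided after the window results had been seen. The mean over the E6.5 windows of each protein-coding gene was taken for genes with at least 8 E7.5 windows and at least 5 E6.5 windows in all 15 libraries, and limma was fitted to 5198 genes. Of the 979 genes with at least 50% members, 752 could be tested. In ExE 671 of them (89.2%) were lower in matDKO/CAST at an adjusted p under 0.05 and none was higher, beside 92.2% of all genes. The median difference was -10.1 points, against -12.4 over all genes and -13.8 over genes with no member. In epiblast 725 (96.4%) were lower and none higher, beside 97.2%, with medians of -13.1, -15.5 and -17.4 points. After the mean over all genes was subtracted from each library, 0 of the 752 genes passed in ExE, beside 0% of all genes. In epiblast 7 (0.931%, against 1.75% of all genes) then passed, which were higher in matDKO/CAST. Without the first matDKO/CAST ExE library 529 genes (70.3%, against 84.3% of all genes) passed and the median was -8.50 points. Without the first B6/CAST ExE library 418 (55.6%, against 72.3%) passed, and without the second 494 (65.7%, against 76.8%). For the interaction between tissues 0 of 752 genes and 0% of all passed. In the wild type 518 (68.9%) were higher in epiblast, beside 89.4% of all genes, with medians of 5.75 and 11.1 points. Without the second B6/CAST ExE library 348 (46.3%, against 81.6% of all genes passing) were higher. After the mean over all genes was subtracted from each library, 603 genes (80.2%, against 55.4% of all genes) passed and all of them were lower in epiblast.

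**Figure D4:**
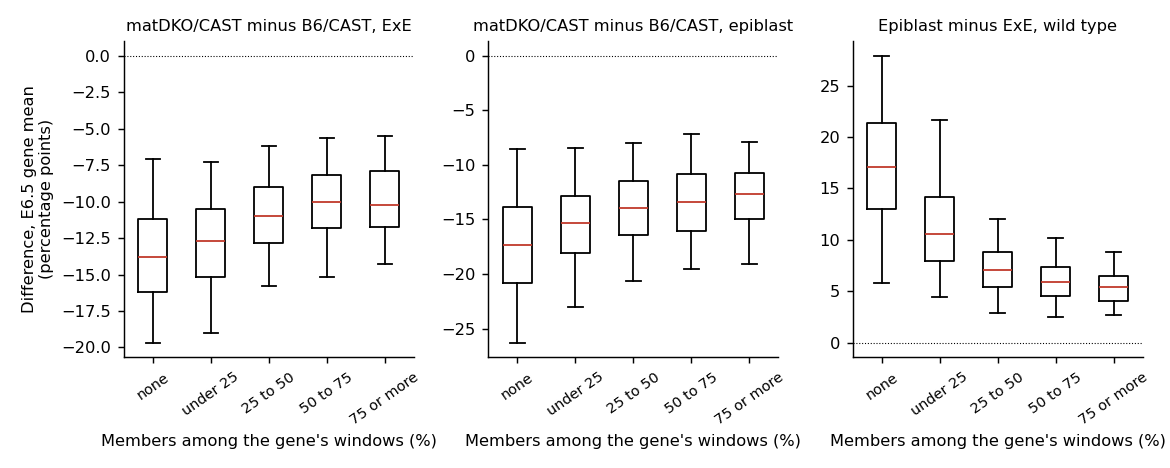
Difference of gene means at E6.5 (percentage points) by the share of the gene's windows that are members, for matDKO/CAST minus B6/CAST in ExE and epiblast and for epiblast minus ExE in the wild type. Boxes show quartiles with the median in red and whiskers the 5th to 95th percentile over genes. The median in ExE went from -13.8 points in genes with no member to -10.2 in genes with at least 75%, and in the wild type from 17.1 to 5.44.

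The named genes show the size of the fall. In Cit the gene mean in ExE was 83.5% and 84.1% in B6/CAST, 89.2% and 85.4% in CAST/B6 and 67.4%, 72.5% and 73.1% in matDKO/CAST. The matDKO/CAST libraries lay below all others, with a difference of -12.8 points (SE 2.67, adjusted p = 0.000507 in limma). In epiblast Cit had 87.4%, 85.7% and 87.3% in B6/CAST and 75.9% and 76.6% in matDKO/CAST. Eif4g3 had 84.2% and 84.8% in B6/CAST ExE and 74.1%, 76.8% and 77.3% in matDKO/CAST ExE, a difference of -8.43 points (SE 2.57, adjusted p = 0.00562 in limma), and -15.9 points in epiblast. Mdn1 had 84.5% and 85.7% in B6/CAST ExE and 74.8%, 80.1% and 81.3% in matDKO/CAST ExE, -6.38 points (adjusted p = 0.0390 in limma). Its values in epiblast were 88.3%, 93.2% and 91.4% against 77.8% and 74.6%, -14.8 points. The difference between the tissues was not past the threshold in this gene (interaction 8.42 points, SE 4.00, adjusted p = 0.520 in limma). Setd2 had 74.2% and 71.7% in B6/CAST ExE and 66.3%, 70.6% and 66.2% in matDKO/CAST ExE, -5.26 points (adjusted p = 0.0643 in limma).

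**Figure D5:**
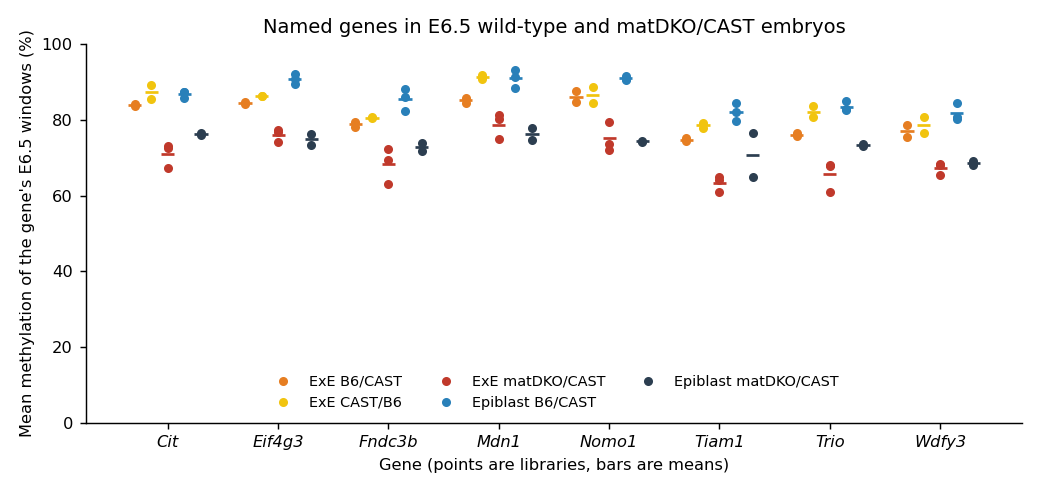
Mean methylation (percent) of the E6.5 windows of 8 genes with many members, by library, with the 3 ExE groups to the left and the 2 epiblast groups to the right above each gene name. Points are libraries and bars are means. In Cit the matDKO/CAST ExE libraries lie at 67.4% to 73.1%, under both B6/CAST libraries.

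Across the genes with at least 50% members the differences in ExE ran from -18.9 points in Clptm1 to -2.07 in Zfp451. Clptm1, a membrane protein gene, had 72.9% and 74.4% in B6/CAST ExE and 55.6%, 55.8% and 52.9% in matDKO/CAST ExE (SE 3.08, adjusted p = 0.000160 in limma). Wdr11 followed at -18.5, Tmem206 at -18.4, Inf2 at -18.1 and Rnf145 at -18.0. At the other end, Zfp451 had 63.3% and 67.2% against 56.3%, 67.6% and 65.7%, groups that overlapped (adjusted p = 0.543 in limma). Bzw2 had 73.5% and 71.8% against 70.5%, 66.8% and 71.5% in ExE, -3.0 points, and 82%, 82.3% and 83.0% against 64.3% and 66.0% in epiblast, -17.3 points. Only the epiblast value of Bzw2 passed (adjusted p = 1.81e-05 in limma, against 0.262 in ExE), and the test of the difference between the tissues had an adjusted p of 0.252 in limma.

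The gene lists were tested in the same fit. In ExE 27 of 28 chromatin genes, 12 of 14 ubiquitin pathway genes, 12 of 13 growth genes, 7 of 11 genes of DNA and histone methylation and 1 of 4 genes of splicing and RNA processing were lower in matDKO/CAST, and none was higher, beside 92.2% of all genes. In epiblast these counts were 28 of 28, 14 of 14, 13 of 13, 11 of 11 and 3 of 4, beside 97.2% of all genes. Kmt2d, a histone methyltransferase gene, had 81.8% and 79.9% in B6/CAST ExE against 66.6%, 69.4% and 71.7% (-11.6 points, adjusted p = 0.00143 in limma). Mtor had 83.0% and 80.2% against 70.1%, 72.7% and 71% (-10.3 points, adjusted p = 0.00240 in limma). All 13 imprinted genes tested were lower in both tissues, beside 92.2% of all genes in ExE and 97.2% in epiblast, with a median of -15.5 points in ExE, against -12.4 over all genes. The 19 long neuronal genes tested, with hardly a member, were lower in 13 cases in ExE and in 19 in epiblast, and their median excess in the wild-type epiblast was 29.2 points. That excess compares with 6.08 points in the chromatin genes and 4.87 in the genes of DNA and histone methylation.

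The parental alleles of the members had similar means at E7.5. In ExE the maternal allele had a mean of 83.6% and the paternal allele 83.1% in B6/CAST, and both had 84.5% in CAST/B6. The maternal minus paternal difference was 0.214 points ± 0.347 (SD, n = 4) in ExE and 0.0920 points ± 0.207 (SD, n = 4) in epiblast. A mean of at least 80% over both alleles bounds the difference that a member can have, so a small difference is partly fixed by the rule. Of 23275 members with both alleles in all 4 ExE libraries, 0 had an adjusted p under 0.05 in limma, beside 0.00722% of all windows, and 469 (2.02%) had an unadjusted p under 0.05, against 6.38%. The central 90% of differences lay between -7.05 and 7.52 points, against -10.4 and 10.2 over all windows, and 4 members (0.0172%, against 0.513% of all windows) differed by 20 points or more. In epiblast 0 of 17923 passed in limma, beside 0.00838%, with 192 (1.07%) at an unadjusted p under 0.05, against 4.87%. The other settings tried gave 0 as well. Gene means, again chosen after seeing the windows, gave 0 of 706 genes with at least 50% members in ExE, beside 0.640% of 5000 genes, and 0 of 626 in epiblast, beside 0% of 4616. In ExE 27 of the 32 genes that passed held no member. Among the 5198 genes of the E6.5 fit 2293 held none, and nothing is read from the 27. Among the 32, Grb10 (1 member of 17 windows) had maternal values of 76.0%, 78.0%, 81.9% and 83.1% and paternal values of 58.3%, 57.7%, 59.2% and 59.1%. Its difference was 21.2 points (SE 1.11, adjusted p = 0.00113 in limma).

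A few members ran against the general order of the tissues, and they were chosen after their values were seen, from the contrast that chose the members, so no test is given. The ExE mean exceeded the epiblast mean in 397 members (1.4%, against 3.12% of all windows), and in 9 (0.0318%, against 0.963%) all 4 ExE libraries were above all 4 epiblast libraries. In an intron of Cars2, a mitochondrial tRNA synthetase gene, on chr8:11533682-11537981, ExE had 78.1%, 78.4%, 83.4% and 82.5% and epiblast 63.0%, 62.5%, 77.1% and 70.7%. In an exon of the paxillin gene Pxn, on chr5:115548916-115550401, ExE had 84.6%, 84.6%, 84.7% and 85.3% and epiblast 79.4%, 80.2%, 71.3% and 72.1%. In an exon of Kat6b, a histone acetyltransferase gene, on chr14:21622036-21626219, ExE had 80.6%, 80.1%, 80.9% and 82.4% and epiblast 67.1%, 74.3%, 75.3% and 65.4%. There the epiblast alleles differed by strain rather than by parent. The B6 allele had 71.2% and 86.7% as the maternal and 100.0% and 78.3% as the paternal copy, and the CAST allele 45.5% and 24.3% as the paternal and 46.2% and 45.1% as the maternal copy. In ExE the B6 allele ranged from 79.8% to 93.1% and the CAST allele from 71.7% to 79.0%. At E6.5 the window over Kat6b was at 74.1% to 87.0% in the 5 wild-type epiblast libraries with a value and 74.3% to 91.3% in wild-type ExE, so the tissues overlapped there. They also overlapped for Cars2, at 58.9% to 84.4% in the 5 wild-type epiblast libraries with a value and 68.5% to 87.5% in ExE, and for Pxn, at 75% to 96.3% and 88.7% to 95.8%.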

How the data were processed

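Whole-genome bisulphite libraries were made by post-bisulphite adaptor tagging. The authors trimmed reads with Trim Galore, aligned them with Bismark to GRCm38 and assigned reads to parental alleles. The submitters' processing notes name Trim Galore 0.4.4 and Bismark 0.20.0 for the 15 E6.5 libraries and Bismark without a version for the 8 E7.5 libraries, and the study's methods name other versions of both. The deposited values are the percent methylation per window of 100 CpG positions, given by the authors for each library, at E7.5 also for each allele. No coverage is given, so the precision of a single percent value is unknown. The matDKO/CAST libraries also carry 129 sequence, and their alignment was handled in additional steps, which cannot be told apart from the genotype.

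E6.5 windows were matched to members by the members' midpoints, and genes were taken from GENCODE vM21 on GRCm38. limma 3.58.1 (R 4.3.3) was fitted to percentages over all windows measured in the libraries compared, with Benjamini-Hochberg adjustment over all windows and a threshold of 0.05. The fit was tested on simulated data. Tables were handled with Python 3.11.15, pandas 2.3.3 and, in R, the data.table package (1.17.8). All columns of per-sample values were used. One B6/CAST epiblast column is numbered 2, whereas the labels of this group give 1, 3 and 4, so it could not be matched to a sample and was used as a replicate of its group without a number.

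The genes named were the 12 with the most members, the 12 coding genes with the largest share among those with at least 8 windows, members of the gene lists, and windows named by rank. The members, the rules and the gene lists were chosen with earlier results of these data known. The tests on gene means, and the choice of sequence stretches free of untranslated regions, were added after the data were seen. Windows that are mainly repeat sequence are not shown as sequence. Some items are not reported here. The alternatives tried were a logit scale, trend and robust settings, other sets of libraries, subtraction of library means, a replicate block, other thresholds on ExE and leaving out each library.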

Additional observations from a re-analysis of the deposited data

Results flagged for a closer look

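Of 84 groups of libraries looked at, 3 held a library far from the others by Dixon's criterion, which chance gives in about 1 of 20 groups. In the Zfp27 window the first CAST/B6 epiblast library was at 95.5%, with the other 3 between 93.2% and 93.3%. In the Pxn window the second CAST/B6 ExE library was at 85.3%, with the others between 84.6% and 84.7%. Over the members of Mdn1 the second B6/CAST ExE library was at 82.9%, with the others between 85.3% and 85.8%.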

How the results depend on the processing

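For member windows in wild-type epiblast against ExE at E6.5 (3364), trend and robust settings gave 5669, all 15 libraries in 6 groups 1467 and no cross term 2140. Leaving out 1 library gave 2003 without ExE B6/CAST replicate 2, 2111 without replicate 1, and at most 3599 (16.7%, against 61.8% of all windows). Subtracting library means gave 4291, nearly all in the other direction. For matDKO/CAST in ExE (0), trend and robust settings gave 55 (0.358%, against 0.198% of all windows) and both crosses as wild type 6233 (40.6%, against 54.4%). Leaving out 1 library gave 0 to 415. The 415 (2.58%, against 3.2%) came without epiblast matDKO/CAST replicate 1, and 333 (1.76%, against 2.35%) without replicate 3. For matDKO/CAST in epiblast (3719), the logit scale gave 1566 (10.2%, against 8.13% of all windows), subtracting library means 0 (against 0.0126%), both crosses 7554 (49.2%, against 57.7%), and B6/CAST and matDKO/CAST libraries alone 2180 (13.4%, against 18.6%). Leaving out 1 library gave from 1641 (10.7%, against 13.3%), without the B6/CAST library of unmatched number, to 4258 (26.2%, against 30.5%). Without B6/CAST epiblast replicate 3 the count was 2289 (14.1%, against 18.2%). Window tests of the interaction and of the alleles gave 0 throughout. The causes were not tested.

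With a replicate block 611 member windows (2.84%, against 31.04% of all windows) passed in the wild type, 0 for matDKO/CAST in ExE and 1119 (7.29%, against 10.1%) in epiblast, and 321 genes (42.7%, against 79.2% of all genes) in the wild type, 659 (87.6%, against 92.1%) for ExE and 685 (91.1%, against 92.5%) for epiblast. Correlations of the deviations of same-numbered libraries were between -0.0173 and 0.0294, so the numbers were not taken to pair the libraries.

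For the gene tests, all chosen after the data were seen, subtracting library means gave 0 for ExE (671), beside 0% of all genes. It gave 7 (0.931%, against 1.75% of all genes) for epiblast (725) and 603 in the wild type (518), these 2 in the other direction. Leaving out 1 library gave 418 (55.6%, against 72.3% of all genes) to 681 (90.6%, against 93.4%) for ExE. The 681 came without the epiblast B6/CAST library of unmatched number, and 679 (90.3%, against 93.8%) without replicate 1 of that group. For epiblast the range was 601 to 729 and in the wild type 348 to 564. The interaction gave 0 to 7 genes (7 without epiblast B6/CAST replicate 1), ExE alleles 0 to 1 and epiblast alleles 0 to 2. A range with no share over all genes beside it is not read as particular to genes with many members. The share of members in genes was 86.7% at a threshold of 75, 92.2% at 85, 94.4% where every ExE value was at least 80, 92.7% weighted by length, and 89.95% to 91.8% without 1 ExE library. The unknown coverage limits every single-window value.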
